A study of Mus musculus with 8 samples.

Results

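Aminoacyl-tRNA synthetases, the enzymes that load each amino acid onto its transfer RNA, were examined in whole lungs of mice with and without the transcription factor ATF4. The set was chosen by name and held 39 genes, of which 20 encode cytosolic synthetases, 3 encode scaffold proteins of the multi-synthetase complex and 16 encode mitochondrial synthetases. Of these, 37 were measured by a transcript cluster (a set of array probes along a gene) that the platform annotation gives to a single gene, among 30098 genes measured that way, and each of the 37 had 1 such cluster. The 2 others were Aars, whose cluster is shared with Exosc6 and is reported apart, and Dars, which was not analysed here. Signal is the log2 value of the deposited, normalised array data, and a change is the mean of the Atf4D/D lungs minus the mean of the Atf4wt/wt lungs on that scale.

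The lungs came from 4 Atf4wt/wt and 4 Atf4D/D mice aged 13 weeks, with 3 males and 1 female in each group, and were taken 4 weeks post tamoxifen. Per the study's methods, animals of both genotypes were of C57BL/6 background and carried the tamoxifen-activated Cre recombinase Rosa26::CreERT2 and both received tamoxifen by gavage, so that only the Atf4 alleles (floxed or wild-type) differed by design. The Cre is driven from a ubiquitously active locus, so deletion was not restricted to any lung cell type. Because whole lung was measured, fewer cells of a type and less RNA per cell cannot be told apart.

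Each synthetase recognises 1 amino acid and its tRNAs, and charging is the step at which the genetic code is read out. Cytosolic enzymes serve the ribosomes of the cytoplasm, and several of them are held together by the scaffold proteins Aimp1, Aimp2 and Eef1e1, whereas a separate set of nuclear-encoded enzymes, with names ending in 2, serves the mitochondrial ribosome. Gars and Kars each supply both compartments. ATF4 is translated when eIF2α is phosphorylated, for example after amino-acid shortage or endoplasmic reticulum stress, and with a partner of the C/EBP family it binds C/EBP-ATF response elements in genes for amino-acid synthesis, amino-acid import and tRNA charging. Many cytosolic synthetase genes are commonly listed among its targets.

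The core of this element was searched for in the annotated promoters, and the windows that held it are shown because they belong to genes whose signals are compared between the genotypes afterwards. RefSeq promoter windows (GRCm38.p6, 250 bases before to 50 after the annotated start) were found for 13 cytosolic genes (Aars and Dars included), 3 scaffold genes and 14 mitochondrial genes. On either strand, TGATGNAA occurred in 3.97% of all 32851 promoter windows, in at least 1 window of 4.51% of all 27025 genes, and in the windows of 5 of the 13 cytosolic genes, 0 of the 3 scaffold genes and 0 of the 14 mitochondrial genes. The stricter TGATGCAA, which is contained in TGATGNAA, occurred in 0.895% of all windows (1.03% of genes) and in those of Aars, Iars, Tars and Yars. TGACGCAA occurred in 0.49% of all windows (0.562% of genes) and in none of the windows of these genes. The looser TGANGNAA, which contains the other 3, occurred in 16.5% of all windows (18.6% of genes), in those of the same 5 cytosolic genes and in those of Aimp1, Nars2 and Sars2. The 5 windows with TGATGNAA are printed 5′ to 3′ from 150 bases before to 30 after the start, with the match in capitals, where TTGCATCA and TTTCATCA are matches read on the opposite strand. The Yars window was chr4:129189753-129189932 on the plus strand. The Aars window was chr8:111033692-111033871 on the plus strand. The Iars window was chr13:49681980-49682159 on the plus strand. The Tars window was chr15:11399629-11399808 on the minus strand. The Gars window was chr6:55037851-55038030 on the plus strand.
Yars: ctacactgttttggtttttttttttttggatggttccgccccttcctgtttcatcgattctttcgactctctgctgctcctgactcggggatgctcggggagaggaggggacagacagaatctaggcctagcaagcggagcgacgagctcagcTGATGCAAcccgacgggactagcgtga
Aars: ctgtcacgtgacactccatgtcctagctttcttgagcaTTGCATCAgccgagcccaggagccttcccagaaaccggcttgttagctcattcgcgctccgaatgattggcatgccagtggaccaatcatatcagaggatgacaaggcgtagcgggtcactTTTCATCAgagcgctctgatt
Iars: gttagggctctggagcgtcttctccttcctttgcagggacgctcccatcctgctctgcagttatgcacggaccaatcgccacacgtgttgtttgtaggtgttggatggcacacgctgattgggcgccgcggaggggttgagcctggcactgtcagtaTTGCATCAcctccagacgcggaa
Tars: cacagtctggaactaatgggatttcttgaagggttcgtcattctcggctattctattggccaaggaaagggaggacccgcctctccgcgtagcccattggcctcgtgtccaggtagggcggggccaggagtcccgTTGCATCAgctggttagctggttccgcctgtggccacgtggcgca
Gars: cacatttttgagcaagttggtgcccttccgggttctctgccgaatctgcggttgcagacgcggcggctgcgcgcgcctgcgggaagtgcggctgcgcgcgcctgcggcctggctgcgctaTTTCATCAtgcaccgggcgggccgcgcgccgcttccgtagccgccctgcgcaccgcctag
Counted with the start base as 1, the match began at position 4 in Yars, 8 in Iars, -15 in Tars and -30 in Gars, and the 2 matches of Aars began at -112 and 10. The windows of Sars and Mars held no TGATGNAA. No window was searched for Cars, Hars, Lars, Nars, Rars, Vars, Wars, Hars2 and Pars2. A match is a description of the letters, and binding was not measured.

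Over the whole array, 182 of 65956 transcript clusters (0.276%) passed the threshold for a call, which was an adjusted p of at most 0.05 together with a fold above 1.5 (limma, Benjamini-Hochberg adjustment over all clusters), and 31 (0.047%) were called lower in Atf4D/D. Array medians lay between 5.21 and 5.29. Atf4 itself read 6.99, 8.03, 8.0 and 7.58 in Atf4wt/wt replicates 1 to 4 and 6.34, 6.26, 6.48 and 6.38 in Atf4D/D replicates 1 to 4. The groups did not overlap, and Atf4wt/wt replicate 1 had the lowest wild-type Atf4 signal. The Atf4 change was -1.29 (SE 0.21, limma adjusted p = 0.0485) and was -1.51 (adjusted p = 0.00902) without that replicate. Leaving out any 1 of the other 7 lungs moved the adjusted p to between 0.0965 and 0.159. Where its probes lie relative to the deleted part of the gene was not analysed here.

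Markers of several cell types differed in level between the groups. The mean signal of 5 lung epithelial markers was 18.09 to 18.17 in Atf4wt/wt and 18.02 to 18.14 in Atf4D/D, which fits the tissue label. All 7 measured platelet markers of 9 had higher means in Atf4D/D (list mean 8.45 to 10.77 against 11.07 to 12.33), as did both measured erythroid markers of 6 (7.94 to 8.45 against 10.55 to 12.48) and 9 of 9 neutrophil markers (8.12 to 8.92 against 9.06 to 11.73). Means were lower in Atf4D/D for 5 of 6 plasma cell markers (list mean 8.02 to 8.83 against 7.76 to 7.84). They were also lower for 5 of 6 measured fibroblast markers of 7, but there the list means overlapped (9.63 to 10.20 against 9.0 to 9.67). The list means of 5 endothelial markers (14.69 to 15.09 against 14.95 to 15.10), 5 macrophage markers (8.4 to 8.95 against 8.62 to 9.56) and 7 lymphocyte markers (7.11 to 7.94 against 7.22 to 7.81) overlapped as well. Higher means in Atf4D/D were found for 4 of the 5 endothelial, 3 of the 5 macrophage and 3 of the 7 lymphocyte markers. The part of these cells in the signals of the synthetases was not tested.

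No synthetase or scaffold gene of the 37 was called by limma, where 0.468% of all genes were called and 0.0598% were called lower, and most cytosolic synthetases had a lower mean in Atf4D/D. Of 18 cytosolic synthetases 16 did, as did 12 of 16 mitochondrial ones and 58.6% of all genes. The difference between the classes was not tested. The median change of the cytosolic synthetases was -0.20, against -0.02 for the 16 mitochondrial synthetases, -0.07 for the 3 scaffold genes and -0.02 for all genes. At an unadjusted limma p under 0.05, 6 of the 18 were lower (33.3%) and 0 were higher, where 7.2% of all genes were lower and 6.26% higher. At an unadjusted p under 0.001, 4 of the 18 were lower, where 0.286% of all genes were. In 6 of the 18 every Atf4D/D lung lay below every Atf4wt/wt lung (4.67% of all genes), and in 0 did every one lie above (4.33% of all genes). The cytosolic synthetases are bright on the array, 15 of them in the upper quartile of signal. Of these 15, 4 were lower at an unadjusted p under 0.05, and their median change was -0.20. Sars and Mars, both lower under 0.001, were among the 15, whereas Yars and Cars were not. Among all upper-quartile genes 10.6% were lower at an unadjusted p under 0.05, 0.556% were lower under 0.001 and the median change was -0.01.

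**Figure D1:**
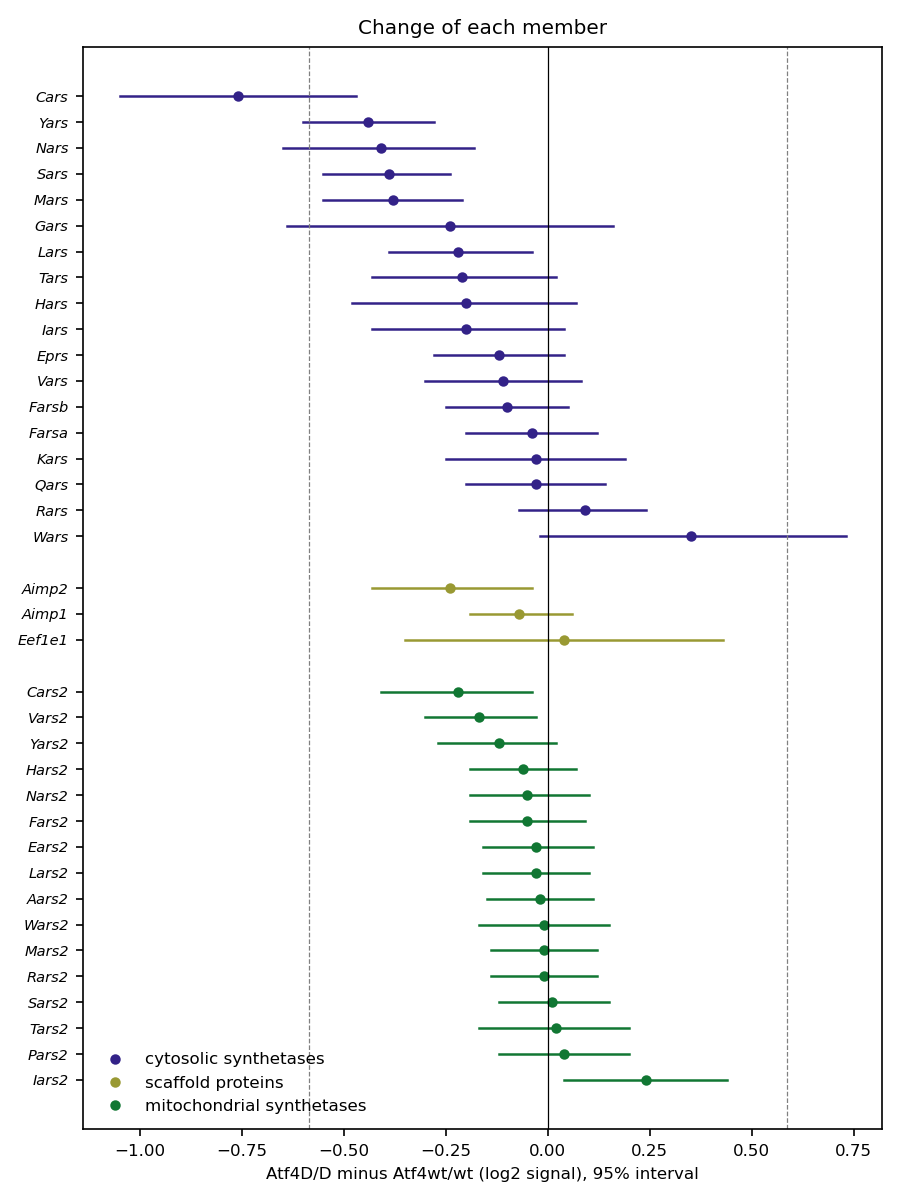
Change of each of the 37 measured genes (Atf4D/D minus Atf4wt/wt, log2 signal, 4 lungs a group), with points for the change and lines for the 95% interval from limma. Dashed lines mark the 1.5-fold minimum, and the lowest points are the cytosolic Cars, Yars, Nars, Sars and Mars, between -0.76 and -0.38.

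The 6 cytosolic genes with the smallest p were Yars, Cars, Sars, Mars, Nars and Lars, and these were also the 6 whose groups did not overlap. Cars, which charges cysteine, showed the lowest change of the whole set. Its signal was 7.56, 8.24, 7.99 and 7.84 in Atf4wt/wt replicates 1 to 4 and 7.18, 7.17, 7.14 and 7.10 in Atf4D/D replicates 1 to 4. The knockout lungs lay within 0.08 of each other, whereas the wild-type lungs spread over 0.68, with replicate 1 nearest to the knockouts. The change was -0.76 (SE 0.13, 95% interval -1.05 to -0.47, fold 1.69) with a limma adjusted p of 0.0531, just outside the threshold. Without Atf4wt/wt replicate 1 the change was -0.88 and Cars was called (limma adjusted p = 0.0236), and over the 8 leave-one-out fits the adjusted p ran from 0.0236 to 0.161.

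Yars charges tyrosine. Its signal was 7.38, 7.69, 7.59 and 7.56 in the Atf4wt/wt lungs and 7.15, 7.11, 7.09 and 7.11 in the Atf4D/D lungs. Again the knockouts were tight, and wild-type replicate 1 was the lowest of its group. The change was -0.44 (SE 0.07, interval -0.60 to -0.28) with a limma adjusted p of 0.0492. Yars was the only member to pass the adjusted p, which 0.0897% of all genes passed in the lower direction, but its fold of 1.36 was under the minimum. Leaving out single lungs moved its adjusted p between 0.0297 and 0.156.

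Sars, which charges serine and also provides the tRNA that is turned into selenocysteinyl-tRNA, was a much brighter signal. It read 10.84, 10.98, 10.92 and 11.10 in Atf4wt/wt and 10.62, 10.60, 10.55 and 10.49 in Atf4D/D. The groups were separate by 0.22, and the change of -0.39 (SE 0.07, interval -0.55 to -0.24) had a limma adjusted p of 0.0637. Nars, the asparagine enzyme, charges the amino acid that is made by asparagine synthetase, itself a textbook target of ATF4. Nars read 11.83, 12.26, 11.94 and 12.17 in Atf4wt/wt and 11.74, 11.72, 11.57 and 11.52 in Atf4D/D. Wild-type replicate 1 came within 0.09 of the highest knockout lung, and the change was -0.41 (SE 0.11, interval -0.65 to -0.18, limma adjusted p = 0.184).

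Mars and Lars are subunits of the multi-synthetase complex. Mars charges methionine, including the initiator tRNA, and is listed as Mars1 in the annotation. It read 7.88, 8.04, 8.06 and 7.78 in Atf4wt/wt and 7.60, 7.54, 7.57 and 7.53 in Atf4D/D. The knockout lungs again lay close together, and here wild-type replicate 4 was the lowest of its group. The change was -0.38 (SE 0.07, interval -0.55 to -0.21, limma adjusted p = 0.0899). Lars, which charges leucine and also serves as a leucine sensor upstream of mTORC1, read 9.65, 9.83, 9.65 and 9.91 in Atf4wt/wt and 9.61, 9.50, 9.57 and 9.48 in Atf4D/D. Its groups were separate by 0.03 only, with a change of -0.22 (SE 0.08, limma adjusted p = 0.312).

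**Figure D2:**
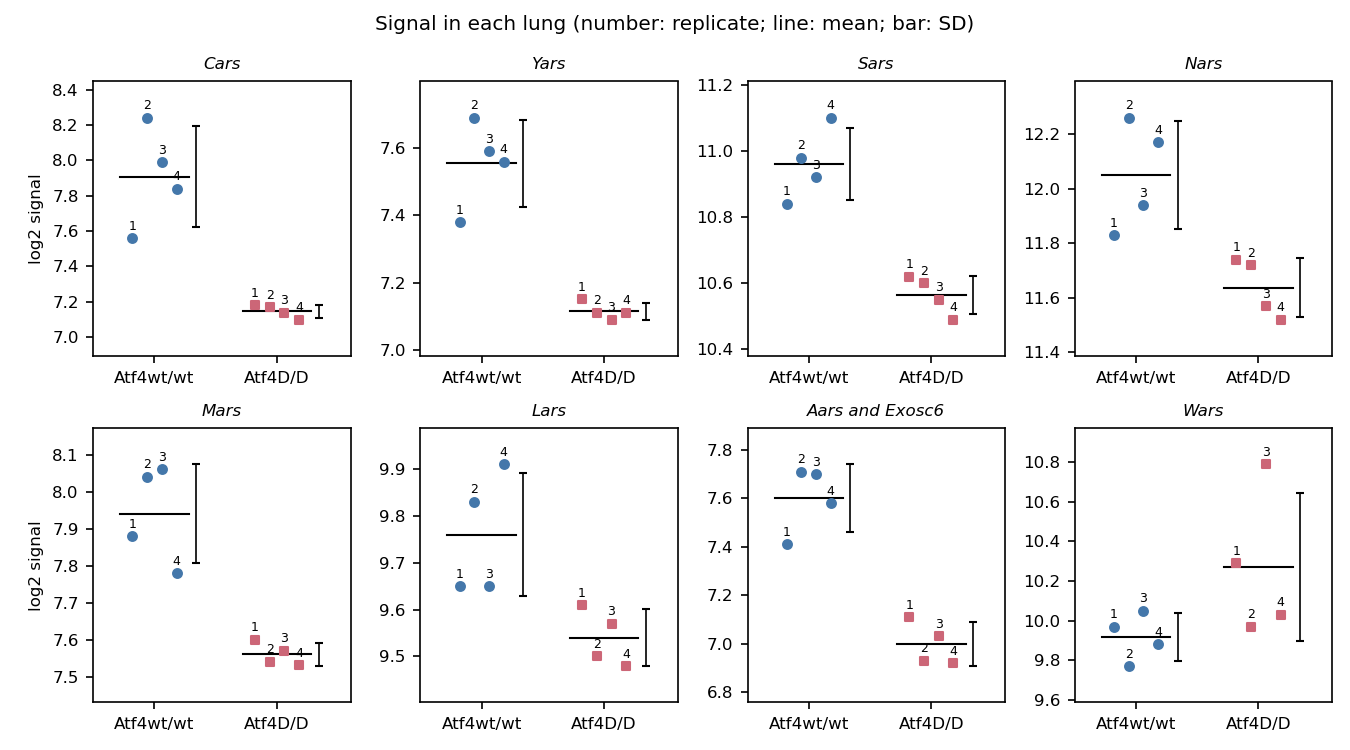
Log2 signal of 8 transcript clusters in each of the 8 lungs, with the replicate number beside each point, a line for the group mean and a bar for the SD (n = 4). In Cars, Yars, Sars, Nars, Mars, Lars and the cluster of Aars and Exosc6 all Atf4D/D lungs lie below all Atf4wt/wt lungs, whereas in Wars the groups overlap and Atf4D/D replicate 3 is the highest at 10.79.

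The transcript cluster that the annotation gives to both Aars and Exosc6 was outside the rule for members and was picked out after its values were seen. Aars charges alanine, and Exosc6 is a subunit of the RNA exosome. The signal was 7.41, 7.71, 7.70 and 7.58 in Atf4wt/wt and 7.11, 6.93, 7.03 and 6.92 in Atf4D/D, so the groups were separate by 0.30. The cluster fell by 0.61 on the log2 scale (SE 0.08, fold 1.52, limma adjusted p = 0.0329), which is a call just past the fold minimum. The adjusted p ran from 0.0255 to 0.114 when single lungs were left out. How much of this signal belongs to either gene cannot be told apart. With this cluster counted, 7 of 19 cytosolic synthetases were lower at an unadjusted p under 0.05 and the median change remained -0.20.

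Of the 12 other cytosolic synthetases none reached an unadjusted p under 0.05. Gars, whose promoter window holds TGATGAAA on the opposite strand, varied widely among wild-type lungs (10.76 to 11.66) and had a change of -0.24 with an SE of 0.18. Tars for threonine (-0.21) and Iars for isoleucine (-0.20), both with TGATGCAA in the windows printed above, and Hars for histidine (-0.20) also overlapped between the groups. Changes nearer 0 were measured for Vars (-0.11) and for both subunits of the phenylalanine enzyme, Farsb (-0.10) and Farsa (-0.04). The same held for Qars (-0.03) and Kars (-0.03) of the complex, and Rars, the arginine enzyme of the complex, had a slightly higher mean (0.09). The data bound these changes: for 13 of the 18 cytosolic synthetases the 95% interval excluded a 1.5-fold change in either direction. Cars, Yars, Nars, Gars and Wars were the 5 whose interval reached it.

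Eprs joins the glutamate and proline activities in a single chain and also takes part in translational silencing after interferon-γ. It read 10.39, 10.69, 10.53 and 10.56 in Atf4wt/wt and 10.47, 10.40, 10.41 and 10.40 in Atf4D/D. The groups overlapped only through wild-type replicate 1, the lowest of the 8 lungs, and the change was -0.12 (SE 0.07, limma adjusted p = 0.558).

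Wars, the tryptophan enzyme, is strongly induced by interferon-γ and stood at the other end of the cytosolic range. It read 9.97, 9.77, 10.05 and 9.88 in Atf4wt/wt and 10.29, 9.97, 10.79 and 10.03 in Atf4D/D. The highest value was in Atf4D/D replicate 3. The change was 0.35 (SE 0.17, limma adjusted p = 0.45) and was 0.18 without that lung. The same lung had the highest mean over 12 measured interferon genes, 9.59, where the other 3 knockout lungs read 7.72 to 8.16 and the wild-type lungs 7.77 to 8.41. Gbp2, an interferon-induced GTPase, read 13.58 there and 11.20 to 11.69 in the other knockout lungs, against 10.72 to 11.24 in the wild-type lungs (change 1.06, limma adjusted p = 0.409). Isg15, a ubiquitin-like interferon-induced protein, had a change of 0.16 (limma adjusted p = 0.582). The part of interferon signalling in the Wars signal was not tested.

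The cytosolic genes were also split by whether they are commonly listed as ATF4 targets, a list drawn up with earlier results of these data known. The 12 measured genes of the 13 on that list had a median change of -0.23, and all 6 genes lower at an unadjusted p under 0.05 were among them. The 6 measured genes of the 7 not on it had a median change of -0.03, and 0 of them were lower at that level. The cytosolic genes were also divided by membership of the complex and by structural class. The median change was -0.12 for the 7 measured synthetases of the multi-synthetase complex, with 2 lower at an unadjusted p under 0.05, and -0.21 for the 11 outside it, with 4 lower. It was -0.20 for both structural classes of cytosolic synthetase, with 4 of 9 class I and 2 of 8 class II genes lower. None of these differences was tested.

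Of the scaffold genes, Aimp2 had the smallest p. Aimp2, which holds the core of the complex together, read 6.99, 7.39, 7.11 and 7.15 in Atf4wt/wt and 6.89, 6.93, 6.98 and 6.88 in Atf4D/D. The lowest wild-type lung all but met the highest knockout lung, and the change was -0.24 (SE 0.09, limma adjusted p = 0.319). The change of Aimp1 was -0.07 and that of Eef1e1 was 0.04, the latter with an SE of 0.17.

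The mitochondrial synthetases were nearly level between the genotypes. Of 16, 12 had a lower and 4 a higher mean in Atf4D/D. At an unadjusted p under 0.05, 2 were lower and 1 higher, where 7.2% of all genes were lower and 6.26% higher. In 1 (6.25%) every Atf4D/D lung lay below every Atf4wt/wt lung, near the 4.67% of all genes. The limma adjusted p ran from 0.317 to 0.984. All 16 of the 95% intervals excluded a 1.5-fold change in either direction, with bounds from -0.41 to 0.44. These genes are dimmer than the cytosolic ones, with 5 of 16 in the upper quartile of signal. Those 5 had a median change of -0.01, but 2 of them reached an unadjusted limma p under 0.05 in opposite directions. These were Cars2 (-0.22) and Iars2 (0.24). The part of signal level in the difference between the classes was not tested.

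The 4 mitochondrial genes with the smallest p had changes in both directions. Vars2, for valine, read 7.34, 7.28, 7.32 and 7.23 in Atf4wt/wt and 7.19, 7.05, 7.09 and 7.18 in Atf4D/D. It was the 1 mitochondrial gene without overlap, with a change of -0.17 (SE 0.06, limma adjusted p = 0.317). Cars2, the mitochondrial cysteine enzyme and also a source of cysteine persulfides, read 8.04, 8.04, 7.92 and 7.79 in Atf4wt/wt and 7.69, 7.60, 7.78 and 7.83 in Atf4D/D. Wild-type replicate 4 lay below knockout replicate 4, and the change was -0.22 (SE 0.08, adjusted p = 0.323 by limma).

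Iars2, for isoleucine, had the highest change among the mitochondrial genes. It read 9.67, 9.44, 9.37 and 9.46 in Atf4wt/wt and 9.89, 9.70, 9.57 and 9.73 in Atf4D/D. Wild-type replicate 1 lay above knockout replicate 3, and the change was 0.24 (SE 0.09, limma adjusted p = 0.338). Yars2, for tyrosine, read 7.17, 7.28, 7.10 and 7.11 in Atf4wt/wt and 7.03, 6.97, 7.05 and 7.12 in Atf4D/D, with overlap and a change of -0.12 (SE 0.06, limma adjusted p = 0.498). The other 12 lay within 0.06 of 0. Their changes were -0.06 for Hars2, -0.05 for Fars2 and Nars2, -0.03 for Lars2 and Ears2, and -0.02 for Aars2. The remaining changes were -0.01 for Rars2, Wars2 and Mars2, 0.01 for Sars2, 0.02 for Tars2 and 0.04 for Pars2.

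For 12 amino acids a cytosolic gene and its mitochondrial namesake (X and X2) were both measured, which sets each gene against its partner in the same lungs. Phenylalanine, glutamate and proline have no such single namesake and were left out of these pairs, with changes of -0.04 for Farsa and -0.10 for Farsb beside -0.05 for Fars2, and -0.12 for Eprs beside -0.03 for Ears2 and 0.04 for Pars2. In 9 of 12 the cytosolic change was the lower. In 4 (Iars, Sars, Mars and Yars) the cytosolic minus mitochondrial signal of every Atf4D/D lung lay below that of every Atf4wt/wt lung. In 0 did it lie above, and in 8 the groups overlapped. No background share was computed for differences between other genes, so whether counts of 9 and 4 among 12 pairs are unusual was not tested. The difference between the changes was -0.54 (SE 0.17) for cysteine, -0.44 (SE 0.14) for isoleucine, -0.41 (SE 0.09) for serine and -0.37 for both methionine (SE 0.08) and asparagine (SE 0.14). It was -0.32 (SE 0.07) for tyrosine, -0.23 (SE 0.12) for threonine, -0.19 (SE 0.09) for leucine and -0.14 (SE 0.14) for histidine. Valine (0.06, SE 0.10), arginine (0.10, SE 0.06) and tryptophan (0.37, SE 0.21) went the other way. In the isoleucine pair the change of Iars2 was 0.24 and that of Iars was -0.20.

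**Figure D3:**
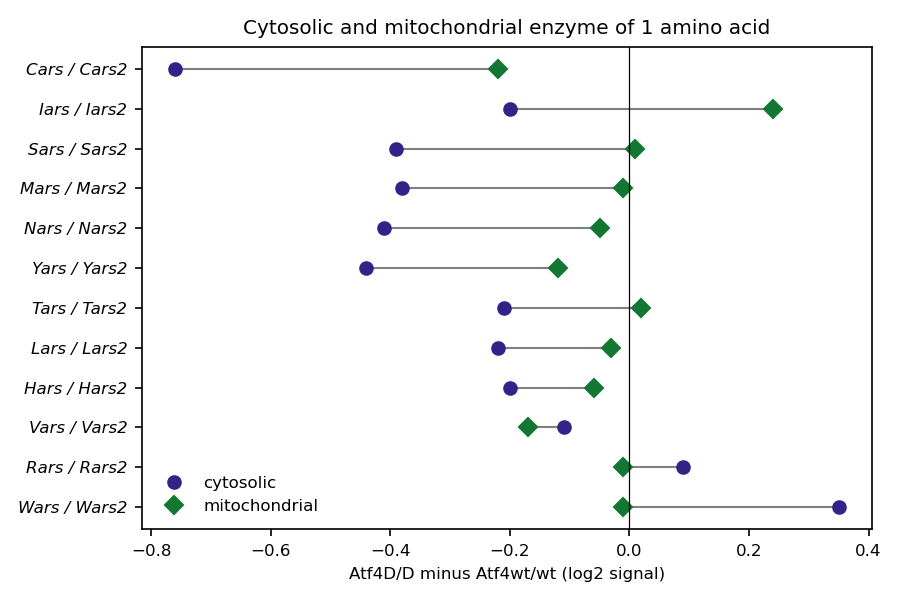
Change (Atf4D/D minus Atf4wt/wt, log2 signal) of the cytosolic enzyme (circles) and of its mitochondrial partner (diamonds) for 12 amino acids, ordered by the difference between them. The cytosolic point is the lower in 9 of 12, from a difference of -0.54 for Cars to 0.37 in the other direction for Wars.

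Averaged over its 18 genes, the cytosolic class read 9.29, 9.55, 9.42 and 9.41 in Atf4wt/wt replicates 1 to 4 and 9.29, 9.21, 9.28 and 9.13 in Atf4D/D replicates 1 to 4, that is 9.42 ± 0.11 (SD, n = 4) against 9.23 ± 0.07 (SD, n = 4). Wild-type replicate 1 was level with the highest knockout lung. The mitochondrial class averaged 7.05, 7.05, 7.02 and 6.95 in the wild-type lungs and 7.01, 6.94, 6.99 and 7.01 in the knockouts, a difference of -0.03 in which no lung stood apart. The cytosolic minus the mitochondrial average was 2.24, 2.51, 2.40 and 2.47 in the wild-type lungs and 2.27, 2.27, 2.29 and 2.13 in the knockouts, so the classes differed by -0.16 in their change, with wild-type replicate 1 inside the knockout range.

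**Figure D4:**
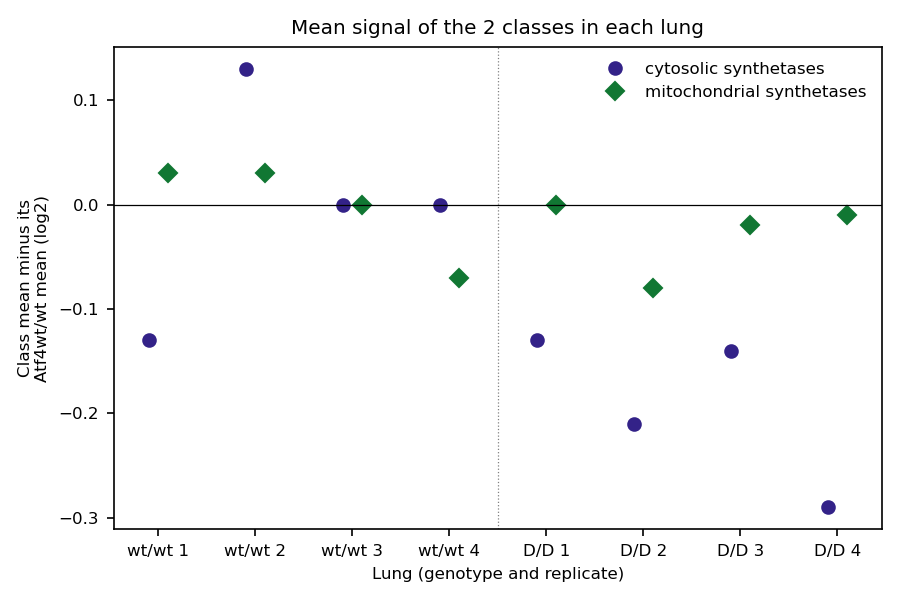
Mean log2 signal of the 18 cytosolic (circles) and 16 mitochondrial (diamonds) synthetases in each lung, each minus its own Atf4wt/wt mean. The cytosolic mean of Atf4wt/wt replicate 1, at -0.13, is level with the highest of the Atf4D/D lungs (-0.13 to -0.29), whereas the mitochondrial means stay between -0.08 and 0.03.

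The wild-type lungs differed among themselves in the cytosolic genes. Replicate 1, which also had the lowest wild-type Atf4 signal, was the lowest of the 4 wild-type lungs in 11 of 18 cytosolic and 0 of 16 mitochondrial synthetases. It was also the lowest in 3 of 3 scaffold genes, 5 of 8 elongation factors and 33.4% of all genes. Replicate 2, with the highest Atf4 signal, was the highest in 11 of 18 cytosolic and 7 of 16 mitochondrial synthetases and in 5 of 8 elongation factors, where it was the highest in 33.8% of all genes. Replicate 3 came close to it in Atf4 (8.0 against 8.03), with a cytosolic class mean of 9.42 against 9.55. Replicate 4, with Atf4 at 7.58, had a class mean of 9.41. Whether the synthetase signals follow Atf4 among the wild-type lungs was not tested. Without replicate 1, 10 of 18 cytosolic synthetases were lower at an unadjusted p under 0.05 and the 1 call was Cars. Without replicate 2, the median change of the class was -0.10.

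Other genes of tRNA use and of the ATF4 pathway were set beside the synthetases. Of 10 measured genes of 14 for tRNA export, amidation, proofreading and related steps, the median change was -0.06. At an unadjusted p under 0.05, 1 was lower and 1 higher, where 7.2% of all genes were lower and 6.26% higher. In 3 of the 10 (Xpot and, named after their values were seen, Dtd1 and Sepsecs) every Atf4D/D lung lay below every Atf4wt/wt lung (4.67% of all genes). The groups were separate by 0.02 only in Dtd1 (change -0.13, limma adjusted p = 0.418). They were separate by 0.03 only in Sepsecs (change -0.07, limma adjusted p = 0.633). In 1 (Gatc) every one lay above (4.33% of all genes). Xpot, which exports tRNA from the nucleus, had a change of -0.23 (limma adjusted p = 0.252). Gatc, a subunit of the mitochondrial glutamyl-tRNA amidotransferase, read 12.76, 12.45, 12.43 and 12.44 in Atf4wt/wt and 12.86, 12.97, 12.84 and 13.02 in Atf4D/D. Its change was 0.40 (SE 0.09, limma adjusted p = 0.124). The adjusted p ran from 0.0386 (without wild-type replicate 1) to 0.276 when single lungs were left out.

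The elongation factor list, which covers steps of translation after tRNA charging in cytosol and mitochondrion, had a median change of -0.11 over 8 measured genes of 9. A lower mean in Atf4D/D was found for 7 of the 8, a share like that of the cytosolic synthetases, with 0 at an unadjusted p under 0.05. The smallest p belonged to Tufm of the mitochondrion (-0.19, limma adjusted p = 0.453) and to Eef1d, an exchange factor subunit (-0.15, adjusted p = 0.476 by limma). Of 21 measured genes of 23 of the ATF4 pathway, the median change was -0.07, with 5 lower and 2 higher at an unadjusted p under 0.05 and 1 called. Over all genes these shares were 7.2%, 6.26% and 0.468%. The call was Atf5, a related stress-response factor, which read 7.79, 7.84, 7.72 and 7.61 in Atf4wt/wt and 6.35, 6.16, 6.42 and 6.54 in Atf4D/D. It fell by 1.37 on the log2 scale (limma adjusted p = 0.00348). Aldh18a1, the first enzyme of proline synthesis from glutamate, had a change of -0.56 (limma adjusted p = 0.0396), under the fold minimum of 1.5. Further genes of this list were named after their values were seen. The 2 higher genes were Slc7a5 (0.48, limma adjusted p = 0.362) and Slc3a2 (0.20, limma adjusted p = 0.361). Asns, for asparagine synthetase, was among the 5 lower genes (-0.24, limma adjusted p = 0.314). The changes of all 18 cytosolic synthetases except Cars lay nearer 0 than that of Aldh18a1.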

How the data were processed

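Total RNA from 8 lungs, 4 of each genotype, was amplified, biotin-labelled and hybridised to one-colour Clariom D mouse arrays. The authors deposited log2 values from Transcriptome Analysis Console 4, obtained by RMA (background correction, quantile normalisation and probe summary) at its defaults. These values run from 2.09 to 19.68, and 457 clusters exceed 16 on every array, more than a 16-bit scanner gives, so folds are folds on the deposited scale. No member exceeds 16. Quantile normalisation hides a shift of most genes in the same direction. For the array's genome build: not given in the sources used here.

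Of 65956 transcript clusters 30638 had 1 symbol, 2176 several and 33142 none. A gene was represented by its single-symbol cluster with the highest mean. All clusters were fitted, with no filter on dim signals, by lmFit and eBayes of limma 3.58.1 under R 4.3.3, without covariates and two-sided, with Benjamini-Hochberg adjustment over all clusters. The code was tested on simulated data. Each array was taken as 1 mouse, since the titles number biological replicates. The p-values measure the spread between these samples, and 4 arrays a group limit the precision.

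Values in every lung were given for called members, for the 6 cytosolic, 1 scaffold and 4 mitochondrial genes with the smallest p, and for Wars and Eprs. Other members were given with their change, and the 2 genes with the smallest p were named from each other list. Any further gene of those lists is marked as named after its values were seen. The members and lists were chosen with earlier results of these data known. Promoter windows came from RefSeq (GRCm38.p6). Alternatives were other scalings (median-centring, cyclic loess), signal filters, cluster choices, eBayes options and array weights. Further ones were an equal-variance t-test on each cluster alone, sex as a covariate, males only, a replicate block and leaving out each array.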

Additional observations from a re-analysis of the deposited data

Results flagged for a closer look

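In 3 of 74 groups of 4 lungs, tested gene by gene for the 37 members, 1 lung stood apart from the other 3 (Dixon's test at the 95% level, which chance alone passes in about 1 of 20 groups). The Eprs signal of Atf4D/D replicate 1 was 10.47, where the remaining knockouts had 10.40 to 10.41. Kars read 9.51 in Atf4wt/wt replicate 1 and 9.69 to 9.73 in the other wild-type lungs. Rars read 9.87 in Atf4wt/wt replicate 2 and 9.68 to 9.70 in the other wild-type lungs.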

How the results depend on the processing

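With 4 lungs a group, calls near the threshold turned on single lungs, and the cause was not tested. The count of called cytosolic synthetases, 0 in the main result, was 1 under 8 alternatives. That 1 gene was Cars with only clusters above the median, with 1 cluster per gene, with the mean of a gene's clusters, with array weights, with an adjusted p of at most 0.1, or without Atf4wt/wt replicate 1. It was the cluster of Aars and Exosc6 where clusters with several symbols were allowed, and Yars at an adjusted p of at most 0.05 at any fold. Across the fits that left out 1 lung, the count of calls ran from 0 to 1, the number lower at an unadjusted p under 0.05 from 5 to 10 (highest without Atf4wt/wt replicate 1) and the median change from -0.23 to -0.10 (nearest 0 without Atf4wt/wt replicate 2). The difference between the cytosolic and mitochondrial medians ran from -0.22 to -0.08 (nearest 0 without Atf4wt/wt replicate 2). The cytosolic median stayed below 0 in each alternative run, median-centring and cyclic loess included. For the scaffold genes, the number at an unadjusted p under 0.05 was 0 with only upper-quartile clusters, 0 with males only, and 0 without Atf4D/D replicate 4, and 1 without any other lung. For the mitochondrial genes it was 0 with males only 1 without replicate 1 or 2 of either group, and 2 without any other lung.

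The Atf4 change was -1.29 with an adjusted p of 0.236 by an equal-variance t-test on each cluster alone. By limma the adjusted p was 0.0717 with sex as a covariate, and the change was -1.14 (adjusted p = 0.301) in males only. Without single lungs the change ran from -1.51 to -1.16, past the threshold only without Atf4wt/wt replicate 1. Called clusters numbered 0 by that t-test, 4 in males only and 8 to 266 without single lungs. The count was 8 without Atf4wt/wt replicate 3 or Atf4D/D replicate 1. It was 65 to 89 without Atf4wt/wt replicate 2 or Atf4D/D replicate 2 or 3. Replicate numbers were not treated as pairs in the main fit. Deviations of same-numbered lungs from their group means correlated at -0.19 to 0.06, and 0 of 8 lungs correlated best with their own number. With so few lungs, a weak pairing could be missed. With the replicate block, 0 clusters and 0 members were called, 6 cytosolic genes had an unadjusted p under 0.05 in either direction and the Atf4 change was -1.29 (adjusted p = 0.155). In that fit Wars, which was higher (0.35, limma adjusted p = 0.343), ranked ahead of Lars (-0.22, limma adjusted p = 0.432).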
